A study of Mus musculus with 12 samples.

Results

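The TGF-beta and BMP ligands and their target genes were followed in the bladder of newborn mice as 10 genes: the ligands Tgfb1, Tgfb2, Tgfb3, Bmp2, Bmp4, Bmp5 and Bmp7 and the target genes Id1, Id2 and Id3. They were read through the 20 probe sets, of 45101 on the array, whose only gene symbol in the platform annotation was one of these names. A probe set is a group of short probes for 1 stretch of transcript. Whole bladders at postnatal day 1 (Theiler stage 27) were measured, 1 animal per array without pooling, on 12 one-colour arrays. The 3 groups were SMGA/EGFP (3 arrays), SMAA/EYFP (3 arrays) and wild type (6 arrays), and the question was what transgene expression does to the bladder's expression profile. SMGA stands for the gamma smooth muscle actin Actg2 and SMAA for the alpha smooth muscle actin Acta2. Each transgene couples the promoter of that actin to a fluorescent protein, so it is active in smooth muscle, while the whole organ was assayed. All 12 animals were of the FVB/N strain and labelled male. Transgenic sires of either line were mated to FVB/N females, and the labels used here give no sire or litter for single animals. In whole-organ RNA, fewer cells of a type and less RNA per cell cannot be told apart either.

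TGF-beta and BMP proteins are secreted ligands of 1 family. They bind pairs of type I and type II receptor kinases, and the receptors phosphorylate Smad proteins that enter the nucleus with Smad4. TGF-beta is stored in the matrix in a latent complex and has to be released before it can bind. BMP signals act through Smad1, Smad5 and Smad9, and the Id genes are their best known direct targets. Id proteins lack a DNA-binding region and hold E proteins away from DNA. In the developing bladder, signals between epithelium and mesenchyme pattern the smooth muscle layer.

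Before the results, 3 facts of the series bear on them. First, the database record numbers in the labels are consecutive, with SMGA/EGFP 1 to 3 and wild type 1 to 3 on the first 6 and SMAA/EYFP 1 to 3 and wild type 4 to 6 on the last 6. These are called the first and the second run here. The split was inferred from the order of the groups and no label calls it a batch, yet each transgenic group lies in 1 run, so wild type is the only link between runs. Second, on wild type 4 the intensity of Xist, the RNA made from an inactive X chromosome, was 29603.7, while the other 11 arrays lay between 95.04 and 250.41. This goes against its label of male. Without it 0 of 18 member probe sets were called in either comparison with wild type. Their log2 differences from wild type moved by at most 0.16 (Tgfb3, both lines), and those between wild-type runs by at most 0.35 (Tgfb3). Among 90 other genes of the pathway the largest shifts were those of Msx1. They were 0.30 in SMGA/EGFP and 0.31 in SMAA/EYFP minus wild type, and 0.61 between wild-type runs. Values without wild type 4 stand beside Tgfb2, Tgfb3, Bmp7, Id1 and the correlation of Id2 with Id3. The other genes of the pathway are given with it. Last, summed intensities of 6 mesothelium markers (the outer lining of the organ) differed between groups. They ran from 15469 to 16972 in SMGA/EGFP, from 17676 to 20477 in wild type of the first run, from 23708 to 27332 in wild type of the second run and from 26566 to 35459 in SMAA/EYFP. All 7 smooth muscle and all 8 urothelium markers lay above the filter on low values (below), and of 13 genes of other organs 0 did. Summed smooth muscle markers ran from 242874 to 316249 in SMGA/EGFP, 237768 to 317323 in SMAA/EYFP and 257121 to 309618 in wild type.

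None of the 10 genes passed the test in any comparison. Differences were tested with limma on log2(intensity + 16) after quantile normalization, over the 22518 probe sets whose mean lay above the median of all means. Of the 20 member probe sets 18 were tested, and each of the 10 genes had at least 1. The exceptions were 1 for Tgfb1 (1445360_at, 6.13 to 8.10 on the log2 scale over the 12 arrays) and 1 for Bmp7 (1432410_a_at, 5.51 to 7.41). With Benjamini-Hochberg adjustment over all tested probe sets at 0.05, 0 of 18 were called in SMGA/EGFP minus wild type, where 0.0622% of all probe sets were called. In SMAA/EYFP minus wild type 0 of 18 were called (0% of all), and between the 2 transgenic lines likewise 0 of 18 (0.0799% of all). The average of the 2 lines minus wild type also gave 0 of 18 (0.00444% of all). The smallest adjusted p-values of a member in these 4 comparisons were 0.68, 0.991, 0.118 and 0.996. At an unadjusted p under 0.05, in the same order, there were 5, 5, 7 and 1 of 18 (27.8%, 27.8%, 38.9% and 5.56%), where 6.94%, 4.81%, 9.32% and 4.18% of all probe sets were. The probe sets counted are not independent, and the 4 probe sets of Tgfb2 made up 3, 4, 4 and 0 of them. The 2 comparisons with wild type share the same 6 arrays. Fold changes below are on the log2(value + 16) scale, and values are log2 levels unless a difference is named.

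**Figure D1:**
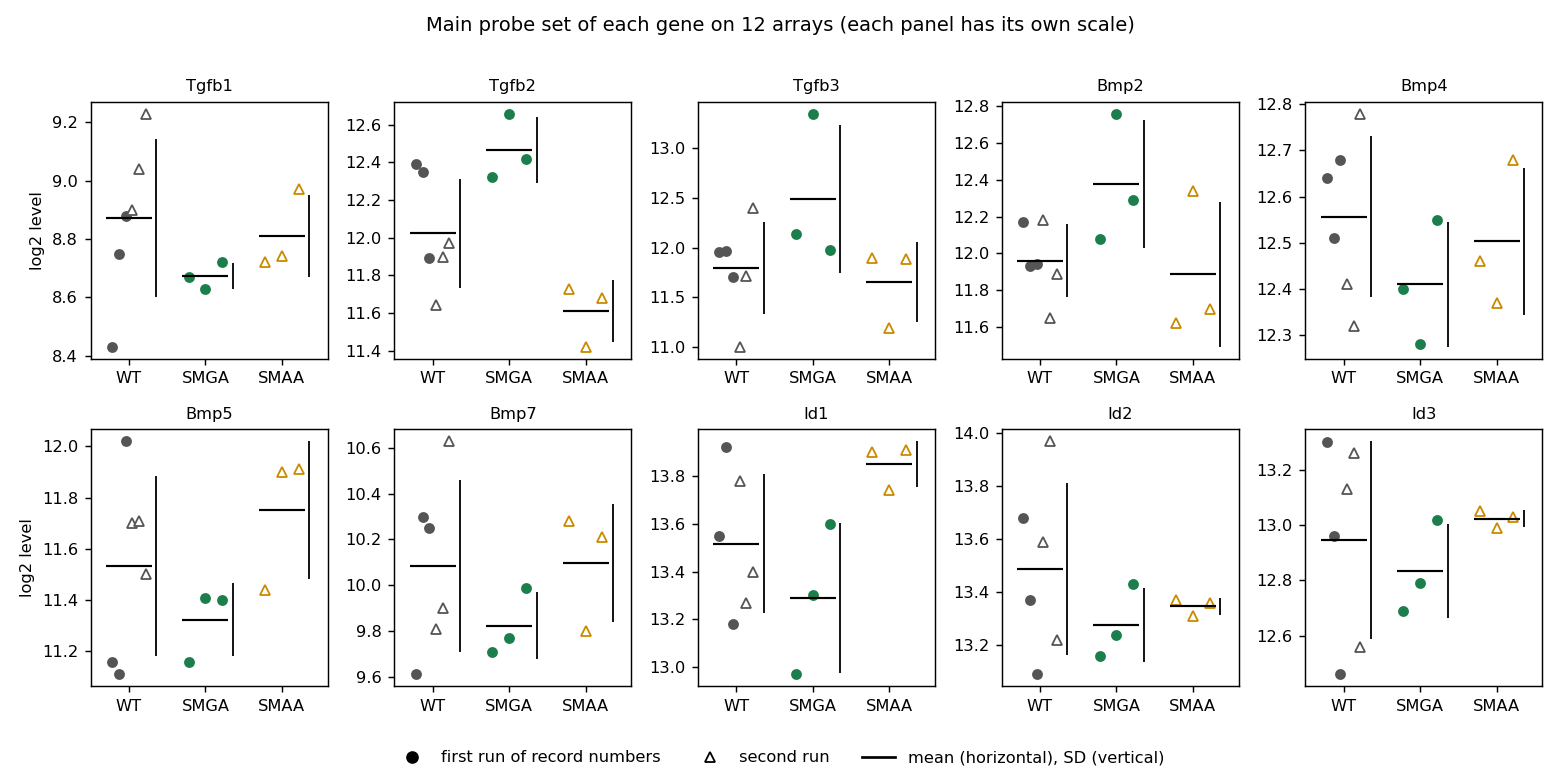
Log2 level of the main probe set (highest mean) of each of the 10 genes on the 12 arrays, by group, with filled circles for the first and open triangles for the second run of record numbers, a horizontal line at the group mean and a vertical bar of 1 SD either side. Each panel has its own scale. Tgfb2 in SMGA/EGFP (12.32 to 12.66) and SMAA/EYFP (11.42 to 11.73) do not overlap, while wild type (11.64 to 12.39) overlaps part of each.

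Tgfb2, the TGF-beta ligand best known from heart, palate and urogenital development, was the member with the largest separation between the transgenic lines. Its main probe set, 1423250_a_at, was at 12.32, 12.66 and 12.42 on the 3 SMGA/EGFP arrays and at 11.73, 11.42 and 11.68 on the 3 SMAA/EYFP arrays. Wild type was at 12.39, 12.35 and 11.89 in the first run and at 11.64, 11.90 and 11.97 in the second. The means of SMGA/EGFP (12.47) and SMAA/EYFP (11.61) thus lay on either side of the wild-type mean (12.02). The transgenic groups did not overlap each other, and both overlapped wild type.

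The log2 difference between SMGA/EGFP and SMAA/EYFP was 0.85 ± 0.18 (SE, n = 3 and 3; 1.81-fold, 95% interval of the log2 difference 0.46 to 1.25; limma, unadjusted p = 0.00037, adjusted p = 0.203). It ranked 41 of 22518 by p. The other probe sets of the gene gave 1.05 ± 0.20 (1450923_at, 2.06-fold, adjusted p = 0.118, rank 27), 1.03 ± 0.23 (1450922_a_at, 2.04-fold, adjusted p = 0.247, rank 48) and 0.71 ± 0.21 (1438303_at, 1.64-fold, adjusted p = 0.372, rank 266). In each of the 4 probe sets all SMGA/EGFP arrays lay above all SMAA/EYFP arrays, as in 6.49% of all tested probe sets. In both directions together 14.5% of all had no overlap. The 4 are not independent: 1423250_a_at, 1450923_at and 1450922_a_at were designed from 1 sequence, and over the 12 arrays the probe sets of Tgfb2 correlated with each other at r of 0.74 to 0.93.

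On 1450923_at the SMGA/EGFP arrays were at 12.39, 12.73 and 12.16 and wild type ran from 11.64 to 12.10 with a median of 11.94, without overlap. On 1450922_a_at SMGA/EGFP was at 11.17, 11.77 and 11.17 against 10.18 to 11.10 (median 10.94) in wild type, again without overlap, and these were the 2 of 18 member probe sets (11.1%) that did not overlap in this comparison, against 2.73% of all. On 1438303_at SMGA/EGFP was at 9.80, 10.34 and 10.18 and overlapped wild type (9.38 to 10.09, median 9.96). The differences from wild type of the 4 probe sets, in the order of the last paragraph, were 0.44 ± 0.16, 0.50 ± 0.17, 0.54 ± 0.20 and 0.21 ± 0.18 for SMGA/EGFP (n = 3 and 6; limma, adjusted p from 0.68 to 0.813). For SMAA/EYFP they were -0.41 ± 0.16, -0.54 ± 0.17, -0.49 ± 0.20 and -0.50 ± 0.18 (adjusted p = 0.991 each), with overlap in all 4. Single arrays carried part of this: on 1450923_at SMAA/EYFP minus wild type was -0.28 without SMAA/EYFP 2. On 1450922_a_at SMGA/EGFP minus wild type was 0.34 without SMGA/EGFP 2, and on 1438303_at it was 0.09 without that array and 0.36 without SMGA/EGFP 1. Neither line differed from wild type beyond the adjusted threshold.

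Wild type differed between the runs in the same order as the lines, with the second run lower. Within it, the second run minus the first was -0.37 ± 0.16 for the main probe set (n = 3 and 3; limma, unadjusted p = 0.0352, adjusted p = 0.593), and -0.16 ± 0.20, -0.35 ± 0.22 and -0.21 ± 0.21 for the others. Without wild type 4 these 4 differences between the wild-type runs were -0.27, -0.06, -0.11 and 0.00, so on 3 of the 4 probe sets most of the difference rested on that array. This was the only one of 18 member probe sets with an unadjusted p under 0.05 between wild-type runs, where 8.16% of all were, and 0 of 18 were called (0% of all). Against the wild-type arrays of their own run, SMGA/EGFP was at 0.26, 0.42, 0.37 and 0.10 and SMAA/EYFP at -0.23, -0.46, -0.31 and -0.40 for the 4 probe sets. With a term for the run in the fit (the blocked fit), SMGA/EGFP minus SMAA/EYFP was 0.48 ± 0.22, 0.89 ± 0.29, 0.68 ± 0.31 and 0.50 ± 0.29 (limma, adjusted p = 1 each). When wild type 4 was left out, SMGA/EGFP minus wild type was 0.37, 0.45, 0.41 and 0.10, SMAA/EYFP minus wild type -0.49, -0.60, -0.62 and -0.61, and the smallest adjusted p between the lines was 0.0647, on 1450922_a_at. The mesothelium marker sums given above ran the other way from Tgfb2, lowest in SMGA/EGFP and highest in SMAA/EYFP. Summed intensities of 4 neuron and Schwann cell markers were 8844, 10845 and 9757 in SMGA/EGFP, 5110, 7622 and 9595 in SMAA/EYFP, 11291, 11303 and 5121 in wild type of the first run and 6613, 4591 and 4685 in the second. Like the main probe set of Tgfb2 they were high on wild type 1 and 2 and lower on wild type 3. The other Tgfb2 probe sets did not share this drop. Wild type 1 to 3 were at 12.10, 11.91 and 12.01 on 1450923_at, at 11.10, 10.96 and 10.95 on 1450922_a_at, and at 9.98, 9.94 and 10.09 on 1438303_at. Of the 4 neuron and Schwann cell markers 0 were called between the lines (3 higher and 1 lower in SMGA/EGFP, median log2 difference 0.67). Between wild-type runs 2 of them had no overlap (median -1.07). The part of either marker list in the result was not tested. Of the 6 mesothelium markers 4 were called lower in SMGA/EGFP than in SMAA/EYFP, with a median log2 difference of -2.54, and 3 lower than in wild type.

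**Figure D2:**
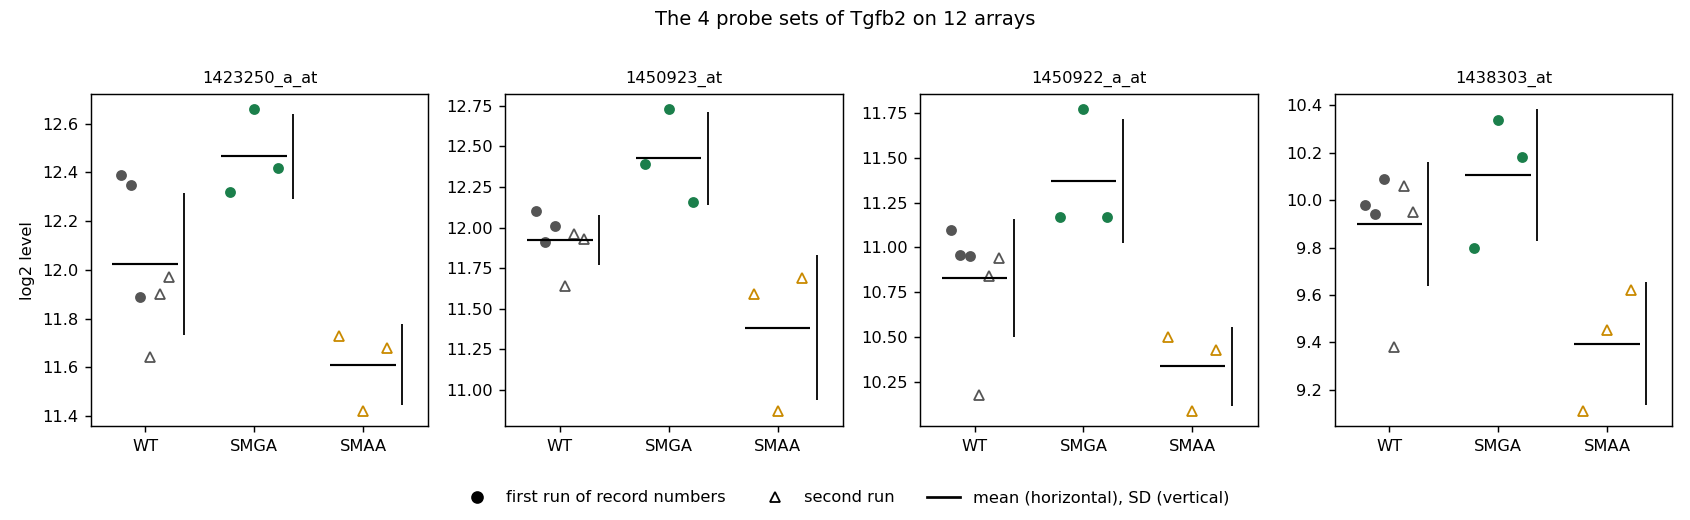
Log2 level of the 4 probe sets of Tgfb2 on the 12 arrays, by group, with filled circles for the first and open triangles for the second run, the group mean as a horizontal line and 1 SD either side as a vertical bar. Each panel has its own scale. SMGA/EGFP arrays lie above SMAA/EYFP arrays in every panel, and wild type 4 is the lowest wild-type array in every panel (11.64, 11.64, 10.18 and 9.38).

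Tgfb3, a ligand known from palate fusion, was at 12.14, 13.35 and 11.98 in SMGA/EGFP and at 11.89, 11.19 and 11.88 in SMAA/EYFP. Wild type ran from 11.00 to 12.40 with a median of 11.83. SMGA/EGFP 2 was more than 1 log2 unit above the other arrays of its group. SMGA/EGFP minus SMAA/EYFP was 0.84 ± 0.36 (n = 3 and 3; 1.78-fold, limma, adjusted p = 0.516), without overlap. A fit that held the run constant gave 0.66 ± 0.52. SMGA/EGFP minus wild type was 0.70 ± 0.31 (n = 3 and 6; adjusted p = 0.718), with overlap, and SMAA/EYFP minus wild type was -0.13 ± 0.31. Without SMGA/EGFP 2 the first of these was 0.40 and the second 0.27, so the size of both rested on that array. Without wild type 4 the differences from wild type were 0.54 and -0.29, and the wild-type run difference went from -0.17 ± 0.37 to 0.18.

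Tgfb1, the TGF-beta isoform most tied to fibrosis and immune control, overlapped between all 3 groups. Its tested probe set was at 8.67, 8.63 and 8.72 in SMGA/EGFP, at 8.72, 8.74 and 8.97 in SMAA/EYFP and between 8.43 and 9.23 (median 8.89) in wild type. The differences from wild type were -0.20 ± 0.18 and -0.06 ± 0.18 (limma, adjusted p = 0.814 and 0.995). All 3 wild-type arrays of the second run (8.90 to 9.23) lay above those of the first (8.43 to 8.88), with a difference of 0.37 ± 0.18 (adjusted p = 0.626). Tgfb1 above and 1450922_a_at of Tgfb2 below were the 2 member probe sets without overlap between wild-type runs (11.1%, against 13.5% of all).

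Among the BMP ligands, Bmp4, a mesenchymal ligand of early urogenital development, varied least. It was at 12.40, 12.28 and 12.55 in SMGA/EGFP, at 12.46, 12.37 and 12.68 in SMAA/EYFP and between 12.32 and 12.78 (median 12.58) in wild type, so that all 3 groups overlapped. The 95% intervals of the log2 difference from wild type were -0.40 to 0.10 for SMGA/EGFP and -0.30 to 0.19 for SMAA/EYFP.

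Bmp2, a close relative of Bmp4, was at 12.08, 12.76 and 12.29 in SMGA/EGFP, at 11.62, 12.34 and 11.70 in SMAA/EYFP and between 11.65 and 12.18 (median 11.94) in wild type. The highest array of SMAA/EYFP lay above 2 of the 3 SMGA/EGFP arrays. SMGA/EGFP minus wild type was 0.42 ± 0.18 (n = 3 and 6; 1.33-fold, limma, adjusted p = 0.718) and 0.36 within the first run, and SMGA/EGFP minus SMAA/EYFP was 0.49 ± 0.21 (adjusted p = 0.515), or 0.38 once the run was blocked. Leaving out SMGA/EGFP 2 gave 0.22 and 0.30. SMAA/EYFP minus wild type was -0.07 ± 0.18.

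Bmp5 and Bmp7 are ligands of the group that signals through the type I receptor Acvr1. The main probe set of Bmp5, 1455851_at, was at 11.16, 11.41 and 11.40 in SMGA/EGFP, at 11.44, 11.90 and 11.91 in SMAA/EYFP and between 11.11 and 12.02 (median 11.60) in wild type. The transgenic lines did not overlap, with a log2 difference of -0.43 ± 0.22 (limma, adjusted p = 0.567). In the blocked fit the difference was -0.22 ± 0.31. Both other Bmp5 probe sets overlapped between the lines, at -0.16 ± 0.23 and -0.15 ± 0.25.

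For Bmp7 the 2 tested probe sets differed. On 1418910_at the SMAA/EYFP arrays were at 9.36, 9.33 and 9.28, above all wild-type arrays (8.54 to 9.16, median 8.97) and above SMGA/EGFP (8.88, 9.19 and 9.17). SMAA/EYFP minus wild type was 0.44 ± 0.17 (n = 3 and 6; 1.35-fold, limma, adjusted p = 0.991), 0.43 within the second run and 0.44 without wild type 4. It was the 1 member probe set without overlap in that comparison (5.56%, against 3% of all). On 1435479_at, the main probe set, SMAA/EYFP minus wild type was 0.01 ± 0.20 with overlap, and the 2 probe sets correlated at r = 0.49 over the 12 arrays.

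**Figure D3:**
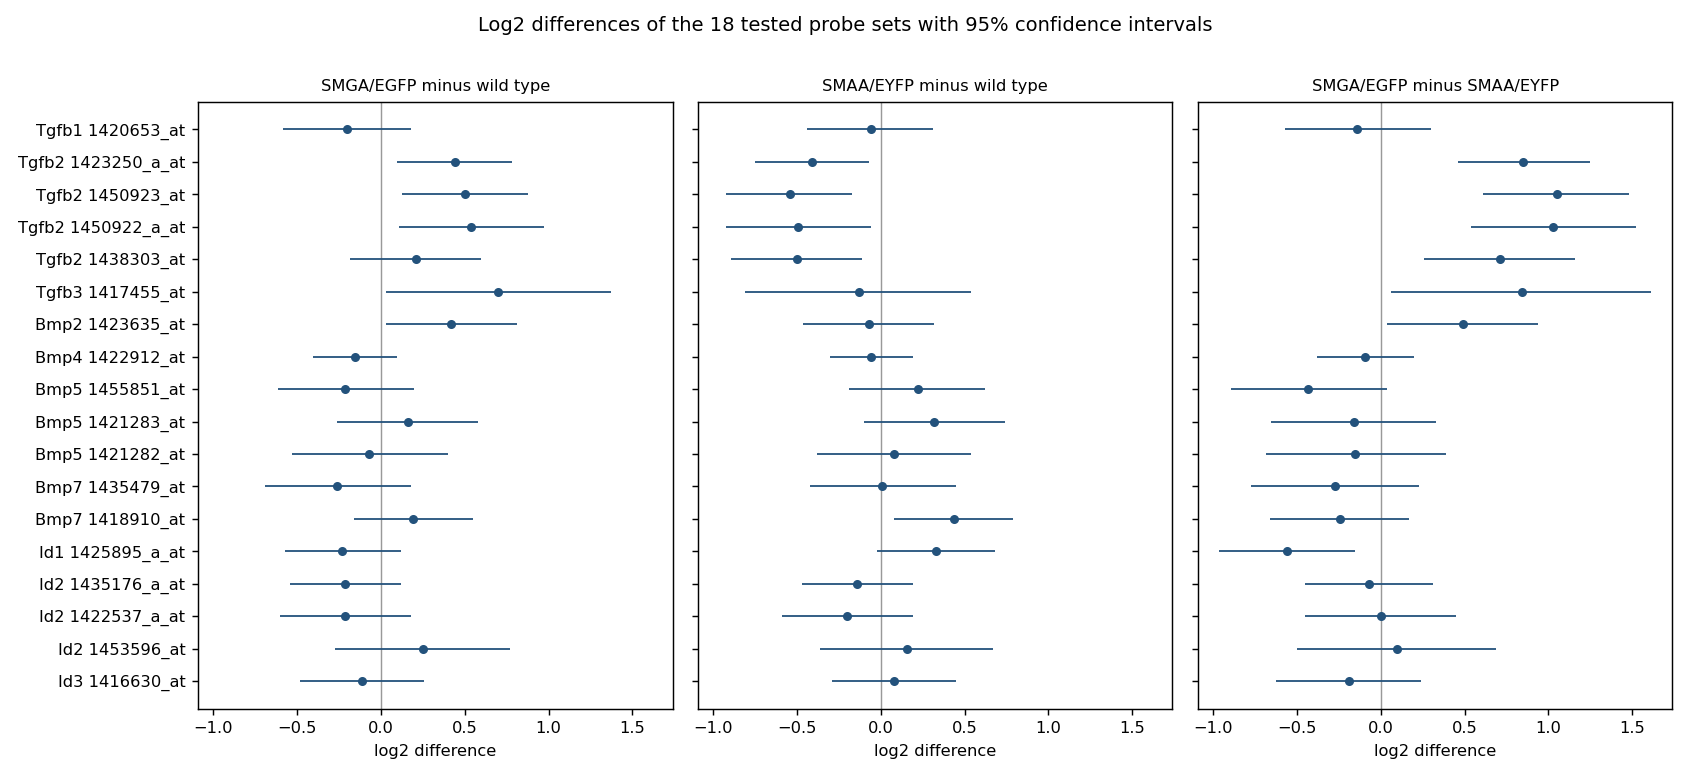
Log2 differences of the 18 tested probe sets in 3 comparisons, one panel each, as points with 95% confidence intervals from limma and a vertical line at 0. In the panel of SMGA/EGFP minus SMAA/EYFP the 4 probe sets of Tgfb2 lie farthest to the right, at 0.71 to 1.05, together with Tgfb3 at 0.84, and Id1 lies farthest to the left at -0.56. No member passed the threshold after adjustment.

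Id1, a BMP target gene, had the opposite sign to Tgfb2 between the lines. It was at 12.97, 13.30 and 13.60 in SMGA/EGFP and at 13.90, 13.74 and 13.91 in SMAA/EYFP, with wild type between 13.18 and 13.92 (median 13.47). The lines did not overlap, and wild type overlapped both. SMGA/EGFP minus SMAA/EYFP was -0.56 ± 0.19 (n = 3 and 3; 95% interval -0.96 to -0.15; limma, unadjusted p = 0.0103, adjusted p = 0.434) and in the blocked fit -0.62 ± 0.27 (adjusted p = 1). The differences from wild type were -0.23 ± 0.16 for SMGA/EGFP and 0.33 ± 0.16 for SMAA/EYFP (adjusted p = 0.79 and 0.991), and -0.26 and 0.37 within the runs. Without wild type 4 they were -0.17 and 0.39. With 1 array left out SMGA/EGFP minus wild type ranged from -0.38 (without SMGA/EGFP 3) to -0.06 (without SMGA/EGFP 1), and it was -0.14 without wild type 2. Wild type differed by -0.07 ± 0.19 between runs. Of the 18 member probe sets, 8 (44.4%, of 5 genes, against 14.5% of all) did not overlap between the lines: the 4 of Tgfb2 and that of Tgfb3 with SMGA/EGFP higher (6.49% of all), and 1 each of Bmp5, Bmp7 and Id1 with SMGA/EGFP lower (8.06% of all). Against both lines together, 0 of 18 separated from wild type (0.151% of all).

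Id2 and Id3, the other targets, did not separate the groups but moved together from array to array. The main probe set of Id2, 1435176_a_at, was at 13.16, 13.24 and 13.43 in SMGA/EGFP, at 13.37, 13.31 and 13.36 in SMAA/EYFP and between 13.09 and 13.97 (median 13.48) in wild type. Id3 was at 12.69, 12.79 and 13.02 in SMGA/EGFP, at 13.05, 12.99 and 13.03 in SMAA/EYFP and between 12.46 and 13.30 (median 13.05) in wild type. For both genes the spread of wild type held all transgenic arrays. The 95% interval of SMGA/EGFP minus SMAA/EYFP was -0.45 to 0.31 for Id2 and -0.62 to 0.24 for Id3. Differences from wild type were -0.21 ± 0.15 and -0.14 ± 0.15 for Id2 and -0.11 ± 0.17 and 0.08 ± 0.17 for Id3 (limma, adjusted p from 0.793 to 0.994).

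Over the 12 arrays Id2 and Id3 correlated at r = 0.86 (permutation p = 0.00022, adjusted p = 0.0099 over the 45 pairs of members) and rho = 0.94 (permutation p = 2e-05, adjusted p = 0.0009). Of the 45 pairs this was the only one past 0.05 by Pearson's r. It was 0.89 without the 2 arrays farthest from the median of Id2, 0.85 without wild type 4, 0.92 over the 6 wild-type arrays alone and 0.92 after group means were taken out. Within the first run r was 0.98 (exact permutation p = 0.00139, the smallest that 6 arrays allow) and within the second 0.77 (exact permutation p = 0.118). The second Id2 probe set, 1422537_a_at, correlated with Id3 at r = 0.69 (permutation p = 0.0135), and the last one, 1453596_at, whose levels of 7.52 to 8.65 lay near the filter, at 0.30 (permutation p = 0.338). Id1 did not pass with either gene, with r = 0.18 with Id2 and 0.50 with Id3 (permutation, adjusted p = 0.85 and 0.472). Within the first run these r were 0.63 and 0.64, and within the second -0.48 and 0.15, so 12 arrays leave a weaker link of Id1 undecided.

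**Figure D4:**
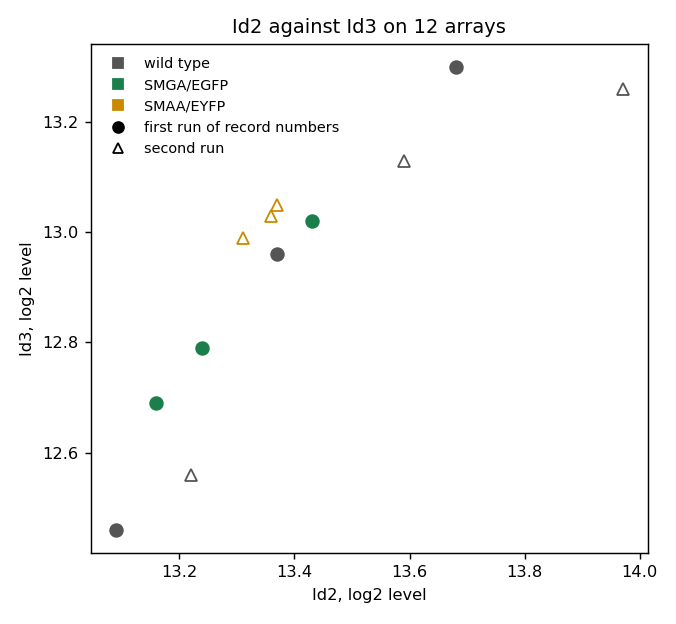
Log2 level of Id3 against that of Id2, main probe sets, on the 12 arrays, with colour for the group, filled circles for the first run and open triangles for the second. The points rise together (r = 0.86), and the ends of the range are wild-type arrays, at 13.09 and 13.97 for Id2.

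Because these 2 genes moved together, the 250 bases before their start sites are shown, from RefSeq on GRCm38.p6, 5′ to 3′ on the strand of the gene. The Id2 stretch is chr12:25096093-25096342 (minus strand) and the Id3 stretch is chr4:136143572-136143821 (plus strand). Capitals mark matches to GGCGCC, a letter string found in BMP response elements, and to GTCT or its reverse complement AGAC, the Smad box, and no 2 matches overlapped.
Id2: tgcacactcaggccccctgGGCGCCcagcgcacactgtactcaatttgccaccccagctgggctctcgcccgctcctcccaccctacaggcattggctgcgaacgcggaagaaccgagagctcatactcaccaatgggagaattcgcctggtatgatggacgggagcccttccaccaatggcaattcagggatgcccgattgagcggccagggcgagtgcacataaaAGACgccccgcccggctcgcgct
Id3: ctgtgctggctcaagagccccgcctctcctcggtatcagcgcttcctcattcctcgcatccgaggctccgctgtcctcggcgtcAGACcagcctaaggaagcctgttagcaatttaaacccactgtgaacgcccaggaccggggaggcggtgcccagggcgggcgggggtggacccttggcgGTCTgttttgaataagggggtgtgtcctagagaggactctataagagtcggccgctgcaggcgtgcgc
The Id2 stretch held GGCGCC 231 bases before the start and AGAC 23 bases before it. The Id3 stretch held AGAC 166 and GTCT 68 bases before the start, and the letters GGCGCC were not in this window. Of 32851 promoter windows of this length, 9.59% held GGCGCC and 82.9% held GTCT or AGAC on either strand. A match is a description of the letters, and no binding was measured here. Of the 10 genes 6 had a promoter in the table used (Id2, Id3, Tgfb1, Tgfb2, Bmp4 and Bmp5), and Tgfb2 held 3 matches to GTCT or AGAC and 0 to GGCGCC.

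Between ligands, Tgfb2 and Tgfb3 correlated at r = 0.75 (permutation p = 0.00237, adjusted p = 0.0533) and rho = 0.82 (permutation p = 0.00164, adjusted p = 0.0369), and at 0.67 after group means were taken out. Without the 2 arrays farthest from the median of Tgfb2, r was 0.51, so the pooled value rested in part on those arrays. Within the runs r was 0.76 (exact permutation p = 0.196) and 0.75 (exact permutation p = 0.0681). Tgfb2 and Bmp5 gave r = -0.75 (permutation p = 0.00691, adjusted p = 0.104) and rho = -0.73 (permutation p = 0.00992, adjusted p = 0.149), -0.77 without the 2 farthest arrays, and -0.67 and -0.62 within the runs (exact permutation p = 0.24 and 0.175). The gene elsewhere on the array whose levels were most like those of Tgfb2 over the 12 arrays was Rassf8 (r = 0.93), that of Tgfb3 was 2310022B05Rik (0.92), that of Id1 Gmcl1 (0.91), that of Id2 Ncoa2 (0.89) and that of Id3 Greb1l (0.89). For Tgfb1 it was Rab21 (0.92), for Bmp2 Rnmt (0.91), for Bmp4 Polr3d (0.88), for Bmp5 Atcayos (0.95) and for Bmp7 Tnfaip1 (0.94). With 20089 named probe sets to choose from, such values describe these arrays only.

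The rest of the pathway was read in 9 lists with 90 distinct tested genes, and 0 of the 90 were called in any of the comparisons. At an unadjusted p under 0.05, SMGA/EGFP minus SMAA/EYFP had 9 genes higher and 1 lower of 90, with 60 of 90 above 0 and a median of 0.08. Over all 11730 genes, each by 1 probe set, 44.4% were above 0 with a median of -0.03. Against wild type, SMGA/EGFP had 5 genes higher and 7 lower at that level (median 0.09, all genes -0.02), and SMAA/EYFP had 1 higher and 5 lower (median -0.05, all genes 0.01). In both directions together these were 11.1%, 13.3% and 6.67% of the 90, where 9.32%, 6.94% and 4.81% of all probe sets were. Between the wild-type runs it was likewise 11.1% of the 90, where 8.16% of all probe sets were. In the blocked fit 56 of the 90 lay above 0 between the lines, with a median of 0.10, and 0 were called.

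Other ligands of the family had 5 of 12 genes tested. Gdf10, a ligand also called Bmp3b, was at 12.95, 11.97 and 12.65 in SMGA/EGFP and at 9.16, 11.12 and 10.34 in SMAA/EYFP. The lines differed by 2.32 ± 0.70 without overlap (n = 3 and 3; limma, adjusted p = 0.392). Wild type of the first run was at 12.97, 12.58 and 10.73 and of the second at 10.96, 10.59 and 9.87, so that the runs of wild type differed by -1.62 ± 0.56 (adjusted p = 0.486) in the same order as the lines. In the blocked fit the line difference was 0.70 ± 0.79. The neuron and Schwann cell marker sums given with Tgfb2 were also high on wild type 1 and 2 and low on wild type 3 and the wild-type arrays of the second run. They ran from 8844 to 10845 in SMGA/EGFP and were 5110, 7622 and 9595 on SMAA/EYFP 1 to 3. SMAA/EYFP 3 thus lay within the SMGA/EGFP range of the sums, but below that of Gdf10. The part of these markers in the Gdf10 result was not tested. Inhba, the activin A subunit, likewise differed by -1.12 ± 0.33 between wild-type runs (adjusted p = 0.441) without overlap.

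Genes of latency and activation of TGF-beta lay higher in SMGA/EGFP than in SMAA/EYFP in 10 of 11, with a median of 0.27. In the blocked fit that median was 0.24. Against wild type the same list had 10 of 11 above 0 in SMGA/EGFP (median 0.13) and 3 of 11 in SMAA/EYFP (median -0.17). Of the 11, 0 were called and 1 had an unadjusted p under 0.05 between the lines: Fbn2, a fibrillin of the matrix that holds latent TGF-beta, at 0.54 ± 0.19 (adjusted p = 0.462), and 0.29 ± 0.26 in the blocked fit. Itgb8, an integrin chain that releases active TGF-beta, was at 0.89 ± 0.36 in SMGA/EGFP minus wild type (adjusted p = 0.712), without overlap. Itgb6, the epithelial chain with the same role, was at 0.79 ± 0.30 in SMAA/EYFP minus wild type (adjusted p = 0.991), with overlap. Summed urothelium markers ran from 198096 to 216625 in SMAA/EYFP, 180455 to 201849 in SMGA/EGFP and 150646 to 195234 in wild type, and their part in this value was not tested.

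Receptors and co-receptors stayed near 0, with medians of -0.06, -0.05 and 0.03 over 13 genes in SMGA/EGFP minus wild type, SMAA/EYFP minus wild type and SMGA/EGFP minus SMAA/EYFP. Tgfbr1, the type I receptor of TGF-beta, differed by 0.24 ± 0.09 between the lines (limma, adjusted p = 0.477) without overlap. Eng (endoglin), a co-receptor of endothelium, was at -0.46 ± 0.19 in SMAA/EYFP minus wild type (adjusted p = 0.991). SMGA/EGFP minus SMAA/EYFP was 0.40 ± 0.21 for Eng (limma, adjusted p = 0.583), with overlap. Summed endothelium markers ran from 16403 to 22959 in SMAA/EYFP, 14772 to 20648 in SMGA/EGFP and 20214 to 24197 in wild type. The median sum was lower in SMAA/EYFP (16531) and SMGA/EGFP (17567) than in wild type (21462), but both ranges overlapped that of wild type. Of the 8 endothelium markers 0 were called in either line against wild type. Their part in the Eng values was not tested. The 5 Smad proteins tested had medians of 0.03, -0.07 and 0.14 in the same 3 comparisons. In the blocked fit the median between the lines was 0.06 for the Smad proteins and 0.11 for the receptors. Smad4, the common partner, was at -0.18 ± 0.08 in SMGA/EGFP minus wild type (limma, adjusted p = 0.718) and -0.11 within the first run.

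Among inhibitors inside the cell and at the membrane, Ski, a repressor that binds Smad complexes, was at 12.74, 12.53 and 12.70 in SMGA/EGFP and at 12.25, 11.86 and 12.11 in SMAA/EYFP. The difference was 0.58 ± 0.17 (limma, adjusted p = 0.372), and wild type differed between runs by -0.41 ± 0.14 (adjusted p = 0.467), both without overlap. In the blocked fit the line difference of Ski was 0.17 ± 0.19. Smad6, the inhibitory Smad of the BMP branch and itself a BMP target, was at -0.53 ± 0.21 between the lines (adjusted p = 0.485), the same sign as Id1, with overlap. The 12 extracellular inhibitors had medians of 0.04, -0.03 and 0.05, and Bmper, a BMP-binding protein, was at -0.50 ± 0.23 in SMGA/EGFP minus wild type (adjusted p = 0.718).

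Of 20 TGF-beta target genes 13 were higher in SMGA/EGFP than in SMAA/EYFP, with a median of 0.09, and of 0.05 in the blocked fit. Tgfbi, a matrix protein named for its induction by TGF-beta, was at 14.56, 14.22 and 14.27 in SMGA/EGFP and at 13.95, 13.99 and 13.96 in SMAA/EYFP. It differed by 0.38 ± 0.09 (n = 3 and 3; limma, unadjusted p = 0.000962, adjusted p = 0.311) without overlap, and by -0.26 ± 0.08 between SMAA/EYFP and wild type (adjusted p = 0.991), also without overlap. Mmp2, a gelatinase, differed by 0.49 ± 0.16 between the lines (adjusted p = 0.404) without overlap, and by 0.31 without SMGA/EGFP 1. Ccn2, a matricellular protein, was at 1.02 ± 0.47 in SMGA/EGFP minus wild type (adjusted p = 0.718), with overlap. It was 0.63 within the first run and 0.67 without SMGA/EGFP 2.

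Of 9 further BMP target genes tested, 6 were higher in SMGA/EGFP than in SMAA/EYFP, the reverse of Id1, with a median of 0.23. The median of this list was also 0.23 in the blocked fit. Prrx1, a homeobox factor of mesenchyme, differed by 0.75 ± 0.22 without overlap (limma, adjusted p = 0.372), and Id4, a further Id gene, by 0.30 ± 0.14 with overlap (adjusted p = 0.527). In the blocked fit these were 0.39 ± 0.29 and 0.09 ± 0.18, and wild type differed between runs by -0.36 ± 0.21 for Prrx1 and -0.21 ± 0.13 for Id4. Tcf4, an E protein that Id proteins bind, differed by 0.53 ± 0.15 between the lines (adjusted p = 0.363) without overlap, while the 3 E proteins had a median of 0.30. Wild type differed between runs in the same order as the lines. The second run minus the first was -0.26 ± 0.14 for Tcf4 without overlap and -0.33 ± 0.16 for Tcf3. In the blocked fit the line difference was 0.26 ± 0.19 for Tcf4 and -0.03 ± 0.23 for Tcf3, and the median of the list was 0.05.

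**Figure D5:**
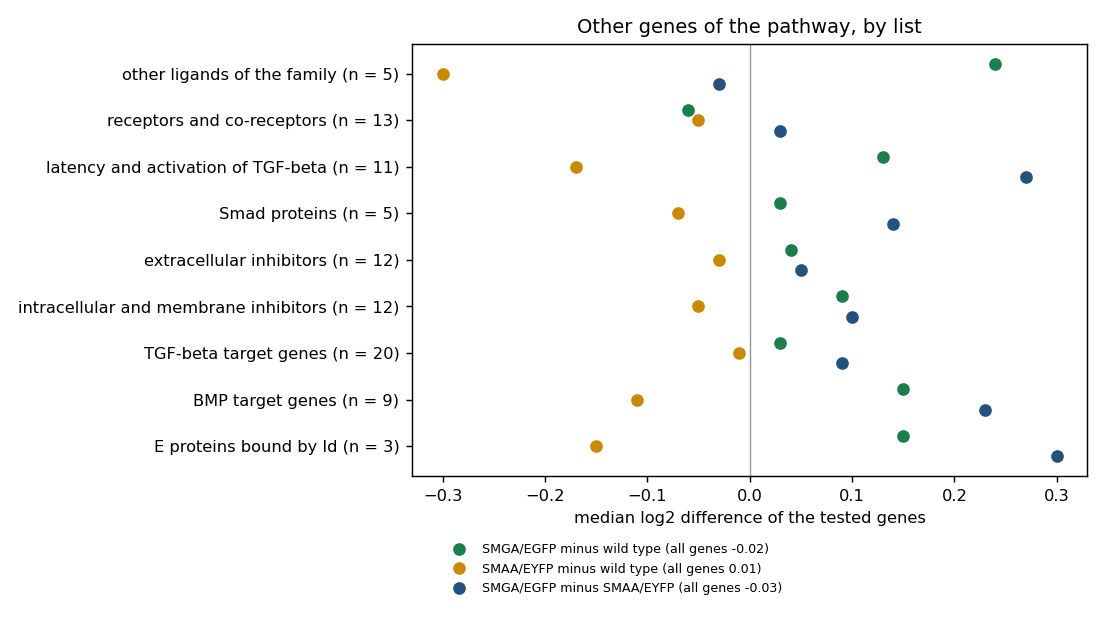
Median log2 difference of the tested genes of each of 9 pathway lists, with the number of genes, in SMGA/EGFP minus wild type (green), SMAA/EYFP minus wild type (orange) and SMGA/EGFP minus SMAA/EYFP (blue), which share arrays. Medians over all genes were -0.02, 0.01 and -0.03. Between the lines the latency and activation list lies at 0.27 and the receptors at 0.03, and no gene of any list was called.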

How the data were processed

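Total RNA of 12 whole bladders was purified, amplified in 1 round and biotin-labelled per the labels' protocols, 1 animal per array. What the authors deposited is 1 intensity per probe set on a linear scale, and the submitters' processing notes name GCOS. The version, the summary algorithm and detection calls are not given in the sources used here. The mean of the values between the 2nd and 98th percentile was 1499.84 to 1500.01 on every array and the median 229.39 to 305.94, so arrays came scaled to a common mean, and a level is relative to its array. Arrays have no read depth: their number, 3, 3 and 6, limits the precision. No label says that litters were separate, so p-values measure the spread between these animals.

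After 64 control probe sets were left out, log2(intensity + 16) was quantile normalized and the 22518 probe sets with a mean above the median of all means (8.02) were tested. The fit over all 12 arrays used limma 3.58.1 (lmFit, eBayes with trend; R 4.3.3), two-sided, with Benjamini-Hochberg adjustment at 0.05. It was tested on simulated data. Correlations used 100000 permutations (numpy 2.4.6), or all orders within a run. Alternatives were the scaling, pseudocount, filter, variance model, array weights, the runs and leaving out each array. Genes outside the 10 were named by rule: up to 3 per list with the smallest p in a comparison, and the gene of highest r with each member. Symbols came from the platform annotation, with 34945 probe sets having 1 symbol. Probe sets of 1 gene were never averaged, and levels were not compared between genes. The members, lists, runs and tests were chosen with earlier results of these data known. For the pathway genes outside the 10, the blocked fit, the values within a run and those with 1 array left out were chosen after seeing the data, as was naming Tcf3.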

Additional observations from a re-analysis of the deposited data

Results flagged for a closer look

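Wild type 4 stood apart from the other 5 wild-type arrays in 2 of the 20 member probe sets, both of Tgfb2, by Dixon's test. It was at 10.18 on 1450922_a_at, where the other wild-type arrays were at 10.84 to 11.10, and at 9.38 on 1438303_at, where they were at 9.94 to 10.09. Chance flags about 1 in 20 groups, and these 2 probe sets correlate with each other (r = 0.84). Wild type 4 is the array with the Xist intensity of 29603.7, and the part of that in its Tgfb2 level was not tested.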

How the results depend on the processing

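No paired analysis was possible because the labels give the animals no replicate numbers, and the numbers used here only name arrays in record order. No member passed the threshold in any of 2085 alternative values of the 90 member differences, and 57 of the 90 kept their sign throughout, among them SMGA/EGFP minus SMAA/EYFP for the 4 probe sets of Tgfb2, Tgfb3, Bmp2 and Id1. Of the 95 values that changed sign, 94 belonged to differences no larger than their standard error. The exception was Id1 in SMGA/EGFP minus wild type, -0.23, which was 0.02 with array weights. The smallest adjusted p of a member over all alternatives was 0.0647. The causes of the changes below were not tested.

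Of all probe sets, for SMGA/EGFP minus wild type 14 called became 5 with a 75th percentile filter and 9 with the compared arrays only, and 6 to 20 with 1 array left out (6 without SMGA/EGFP 2, and 9 without SMGA/EGFP 1 or without 1 of wild type 3, 4 and 6). For SMGA/EGFP minus SMAA/EYFP 18 became 10 with that filter and 2 with the run as a block, and 4 to 21 with 1 array left out (9 without SMGA/EGFP 2, 4 without SMAA/EYFP 2). For SMAA/EYFP minus wild type 0 became 5 with median centring and 5 with array weights. For both groups minus wild type 1 became 0 with median centring, 0 with 1 probe set per gene and 3 with array weights. Between wild-type runs 0 became 1 without a filter, 1 with a 25th percentile filter, 175 with array weights and 0 to 430 with 1 array left out (430 without wild type 3). Correlated pairs went from 1 to 3 with median centring (Id2 with Id3, Tgfb2 with Tgfb3 at 0.77 and Bmp4 with Bmp7 at 0.81). They went to 0 within the first and 0 within the second run. With 6 arrays the smallest exact permutation p is 0.00139, at which 1 pair alone does not pass over 45 pairs. Id1 with Id2, 0.18, was -0.28 without the 2 farthest arrays and -0.48 within the second run.

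Other changes of sign follow, with ranges over arrays left out. In SMAA/EYFP minus wild type, Bmp2 ranged from -0.30 to 0.06, Bmp4 from -0.15 to 0.01 (0.01 with array weights, 0.00 with the run as a block and 0.00 within it), Bmp5 1421282_at from -0.03 to 0.21 (-0.03 with array weights), Bmp7 1435479_at from -0.08 to 0.16 (0.00 as deposited, -0.02 with the run as a block and -0.02 within it), Id2 1453596_at from -0.05 to 0.33, Id3 from -0.02 to 0.15, Tgfb1 from -0.15 to 0.01 and Tgfb3 from -0.29 to 0.10. In SMGA/EGFP minus SMAA/EYFP, Bmp4 ranged from -0.16 to 0.00 and Bmp5 1421282_at was 0.00 with array weights. There, with array weights and with the run as a block in turn, Id2 1422537_a_at was 0.18 and 0.29 (range -0.16 to 0.15), Id2 1435176_a_at 0.01 and 0.14, and Id2 1453596_at -0.12 and -0.23 (range -0.08 to 0.30), and Tgfb1 was 0.24 with the block. In SMGA/EGFP minus wild type, Bmp5 1421282_at ranged from -0.19 to 0.06 and Id3 was 0.03 with array weights. For both groups minus wild type, with median centring and with array weights in turn, Bmp5 1421282_at was -0.01 and -0.03 (range -0.11 to 0.14) and Bmp5 1455851_at -0.01 and -0.04 (range -0.08 to 0.10). Id3 was 0.08 with array weights (range -0.12 to 0.05), Tgfb2 1423250_a_at -0.01 with median centring (range -0.06 to 0.09), and the ranges were -0.02 to 0.13 for Id1, -0.10 to 0.09 for Tgfb2 1450922_a_at and -0.10 to 0.11 for Tgfb2 1450923_at. Between wild-type runs, as deposited, Bmp5 1421282_at was -0.04 (range -0.22 to 0.39), Bmp5 1421283_at -0.05 (range -0.14 to 0.26) and Bmp7 1418910_at -0.08 (range -0.16 to 0.14). Id1 was 0.04 there with median centring (range -0.25 to 0.12), and the ranges were -0.24 to 0.02 for Bmp2, -0.20 to 0.21 for Bmp7 1435479_at, -0.14 to 0.29 for Id3, -0.34 to 0.00 for Tgfb2 1438303_at and -0.52 to 0.18 for Tgfb3.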
